A study of Homo sapiens with 9 samples.

Results

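Coagulation and complement factors are plasma proteins that the liver secretes, and 39 of their genes were followed here in Hep3B cells, a human liver cancer line. The genes were chosen by symbol from the 60683 genes of the deposited count table, by a rule that uses no measured level, although earlier results of these data were known when it was made. RNA was sequenced from 9 cultures, 3 biological replicates in each of 3 groups, all exposed for 24 hours in medium with serum. The labels name the medium as DMEM/F12, while the study's methods name DMEM for this line. The groups were vehicle (DMSO) at 20% O2, vehicle at 1% O2, and 32-134D at 1% O2. 32-134D is an inhibitor of the hypoxia-inducible factors (HIFs), the transcription factors that accumulate when oxygen is low. No library of 32-134D at 20% O2 was analysed here, so an effect of the compound without hypoxia could not be measured, and the results are those of 1 cell line. The labels do not give the dose, which is stated in the study's text. The replicates were wells of 6-well plates, and p-values measure the spread between them.

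In clotting, proteases circulate as inactive precursors and activate each other in sequence. Tissue factor with factor VII starts the sequence, and the contact proteins factor XII, prekallikrein and kininogen can start it at surfaces. Both routes meet at factor X, which with factor V as cofactor turns prothrombin into thrombin, and thrombin makes fibrin. Protein C, protein S, protein Z, antithrombin, heparin cofactor II and tissue factor pathway inhibitor hold the sequence in check, and plasmin dissolves the clot. Complement is a related protease cascade: the classical and lectin routes cleave C4 and C2, the alternative route uses factor B, all of them cleave C3, and C5 to C9 form the pore of the membrane attack complex. Hepatocytes make most of these proteins, and many of the genes are transcribed under liver transcription factors such as HNF4A, C/EBP and FOXA proteins.

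Total counts ran from 6013980 to 40549699 per library, the smallest being replicate 2 of vehicle at 20% O2. The HIF targets CA9, EPO, ANGPTL4, NDRG1 and VEGFA checked the labels: 5 of 5 rose in hypoxia and 5 of 5 fell with 32-134D, CA9 by a log2 fold change of 4.38 and then by -3.36. The 10 hepatocyte markers summed to between 11835 and 19824 CPM (counts scaled to library size, with the TMM method) in every library, with none at 0 in any group. The lowest sum was that of replicate 3 of 32-134D. Of these 10 markers, 1 was higher and 2 were lower in hypoxia, where 19.5% of all genes tested were higher and 20.3% lower. With 32-134D 1 was higher and 2 were lower (0 lower without replicate 3 of 32-134D). Of all genes tested 16.2% were higher and 13.7% lower with it, and these shares are the background for the other markers too. The 7 endothelial markers summed to at most 1.28 CPM, with 5 or 6 of them at 0 in each group. The leukocyte markers lay between 11.3 and 34.7 CPM and the stromal markers between 17.2 and 43.4 CPM, both lowest in vehicle at 1% O2. Of 4 leukocyte markers tested 2 were lower and 1 higher in hypoxia, and of 4 stromal markers 3 were lower. With 32-134D 2 of 4 leukocyte markers, 4 of 4 stromal markers (3 of 4 without replicate 3 of 32-134D) and the 1 endothelial marker tested were higher and 0 lower, the direction of most of the 39 genes. The part of these markers in the results was not tested. Replicate 3 of 32-134D stood apart from replicates 1 and 2 of its group, with 36.4 and 32.5 as the chi-square per degree of freedom against them, while the other pairs of replicates lay between 1.62 and 12. Results that rest on it are given with and without it.

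Of the 39 genes, 37 had at least 10 counts over the 9 libraries and were tested with the other genes, 22672 in all, in 1 edgeR quasi-likelihood fit. Calls of higher or lower needed an FDR (Benjamini-Hochberg) below 0.05 together with a change of more than 1.5-fold. F9, the factor IX gene, had 0 counts in every library, which allows between 0.0740 and 0.499 CPM depending on the library, and C9 had 3 counts in all. In vehicle at 1% O2 against vehicle at 20% O2, 24 of the 37 genes were lower and 1 was higher, while 20.3% of all genes tested were lower and 19.5% were higher. Their median log2 fold change was -1.31, against 0.00 over all genes, and 34 of 37 lay below 0. With 32-134D at 1% O2 against vehicle at 1% O2, 20 of the 37 were higher and 0 were lower, at a background of 16.2% higher and 13.7% lower, with a median of 0.92 against -0.01 over all genes. At an unadjusted p under 0.05 edgeR gave 2 lower genes (F2 and MASP1), and DESeq2 called 0 lower. Both genes also had an FDR below 0.05 and lay under the fold threshold. Scaling by total counts alone in place of TMM moved the median of all genes by -0.21 in hypoxia and by 0.19 with 32-134D. Under it the background became 25.8% lower and 13.6% higher in hypoxia, and 21.0% higher and 8.15% lower with 32-134D, and the counts of the 37 genes became 27 lower and 1 higher, and 24 higher and 0 lower. These are bulk cultures, so fewer cells making an RNA and less of it per cell cannot be told apart.

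**Figure D1:**
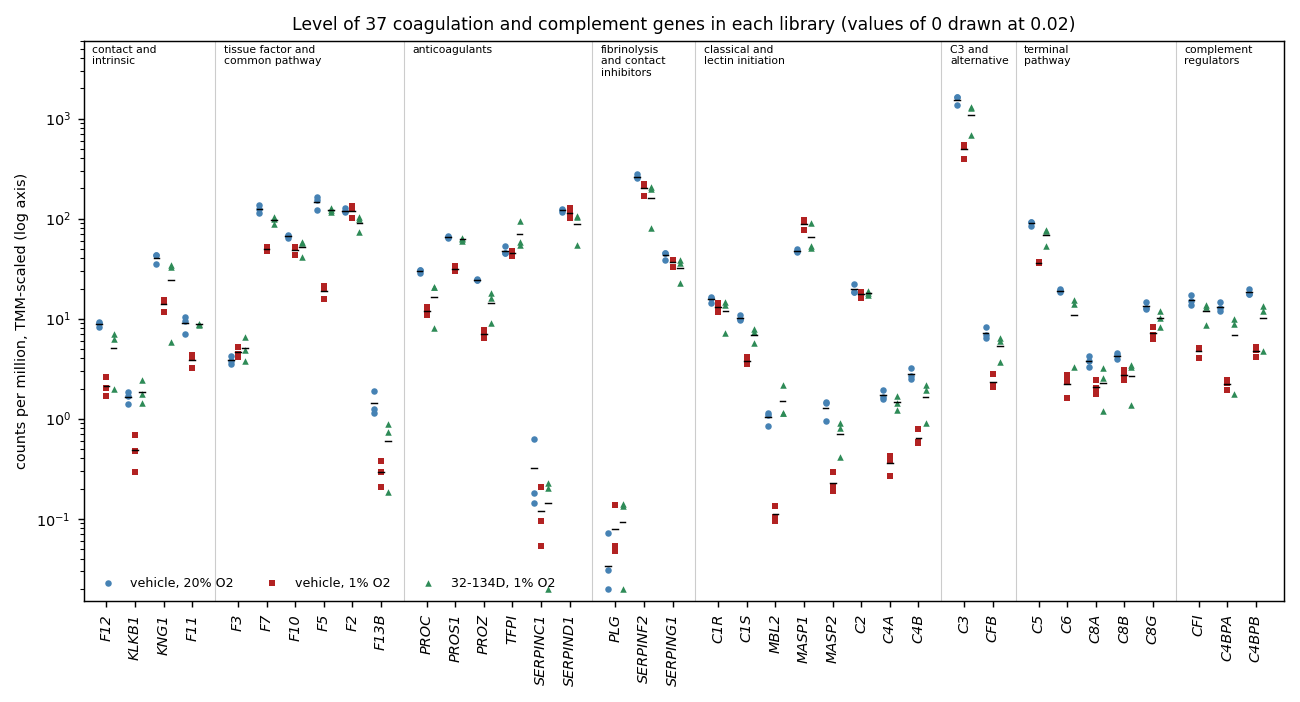
CPM (log axis) of the 37 genes tested, grouped by role, with 1 point per library for vehicle at 20% O2 (blue circles), vehicle at 1% O2 (red squares) and 32-134D at 1% O2 (green triangles). Black bars are group means, and values of 0 are drawn at 0.02. In 24 columns the red squares were called lower than the blue circles, and MASP1 is the 1 column where they were called higher.

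Per length, C3 had the highest level of the 39 genes at 20% O2, with 186 ± 20.1 FPKM (CPM per kilobase of exon, SD, n = 3). SERPINF2, which encodes the plasmin inhibitor alpha 2-antiplasmin, followed with 112 ± 5.80 FPKM. SERPIND1 (heparin cofactor II) and F2 (prothrombin) came next with 47.4 ± 1.98 and 47.2 ± 2.27 FPKM and did not differ beyond their spread. F7 had 33.1 ± 3.14, F10 28.2 ± 0.804 and F5 20.4 ± 3.05 FPKM. PROS1 had 12.1 ± 0.221, PROC 12 ± 0.517, SERPING1 11.9 ± 1.01 and C8G 11.5 ± 0.951 FPKM, each less than 1 SD from its neighbour in this order by the larger SD. At 1% O2 SERPINF2 was highest, with 85.6 ± 12.1 FPKM, and C3 had 58.9 ± 10.3. F5 moved from rank 7 to rank 17 of 39. MASP1 moved from rank 19 to rank 8.

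In CPM, the 39 genes together summed to 2691, 3098 and 3075 in replicates 1, 2 and 3 of vehicle at 20% O2. The sums were 1191, 1482 and 1500 in vehicle at 1% O2. With 32-134D they were 2477, 2475 and 1586. The groups did not overlap, and replicate 3 of 32-134D lay close to the highest hypoxic library. Of these summed counts C3 alone held 50.4% to 53.6% at 20% O2 and 33.0% to 36.6% in hypoxia, and 51.8%, 52.2% and 43.7% with 32-134D. Without C3 the sums were 1334 to 1451 CPM, 798 to 951 CPM and, with 32-134D, 893 to 1194 CPM, where the last 2 groups overlapped through replicate 3.

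The promoters of 4 genes are shown. F7, F10 and PROZ lie next to each other on chromosome 13 and fell by different amounts in hypoxia. KNG1 carries a hypoxia-response-element core before its start. So does C2, which was not called in hypoxia and is not shown. The 4 promoters run from 250 bases before the RefSeq gene start to 10 bases after it (or after the GENCODE start where that comes first), on GRCh38.p14, plus strand. Capitals mark ACGTG, the core to which HIFs bind, and CAAAGTCCA, an HNF4 motif, on either strand. F7 lies at chr13:113105541-113105797, F10 at chr13:113122549-113122808, PROZ at chr13:113158398-113158657 and KNG1 at chr3:186717109-186717285.
F7: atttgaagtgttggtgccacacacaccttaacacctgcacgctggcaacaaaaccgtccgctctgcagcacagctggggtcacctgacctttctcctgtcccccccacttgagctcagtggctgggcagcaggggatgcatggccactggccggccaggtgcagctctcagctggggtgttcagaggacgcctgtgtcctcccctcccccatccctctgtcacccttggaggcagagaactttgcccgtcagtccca
F10: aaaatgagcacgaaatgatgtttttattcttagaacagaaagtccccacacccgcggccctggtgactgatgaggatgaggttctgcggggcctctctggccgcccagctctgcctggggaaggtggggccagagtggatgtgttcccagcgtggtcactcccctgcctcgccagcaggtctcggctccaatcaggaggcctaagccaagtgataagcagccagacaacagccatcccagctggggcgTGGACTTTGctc
PROZ: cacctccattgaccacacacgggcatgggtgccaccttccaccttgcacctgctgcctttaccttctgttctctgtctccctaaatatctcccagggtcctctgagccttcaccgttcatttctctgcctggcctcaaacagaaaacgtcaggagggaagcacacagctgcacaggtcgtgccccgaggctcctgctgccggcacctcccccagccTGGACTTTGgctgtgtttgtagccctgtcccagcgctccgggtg
KNG1: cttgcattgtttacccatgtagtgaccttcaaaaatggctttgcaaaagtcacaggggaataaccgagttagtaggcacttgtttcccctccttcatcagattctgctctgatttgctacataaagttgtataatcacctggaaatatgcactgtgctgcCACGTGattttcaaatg

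F7 held neither of these exact sequences, and other forms of the HNF4 motif were not searched. F10 and PROZ each held the HNF4 motif on the minus strand. In F10 it begins 2 bases before the RefSeq start and spans it, and in PROZ it begins 34 bases before the start. KNG1 held the palindrome CACGTG, which C2 also held before its start. Promoter windows of 300 bases were found for 31 of the 39 genes, 40 windows in all, as some genes have several. The core ACGTG was in 5 of the 40 windows (12.5%), those of PROC, KNG1, C2 (both of its windows) and F2, and in 21.4% of all 35116 RefSeq windows of that length. CAAAGTCCA was in 2 of 40 (5%) against 0.384% of all windows. The FOXA sequence TGTTTNC was in 12 of 40 (30%) against 18%, and the C/EBP sequence TTGCNNAA in 8 of 40 (20%) against 10.5%. These are matches of letters, not sites shown to be bound, and no window was found for C3, C4A, C4B, C8G, C1S, SERPINC1, SERPING1 and SERPINF2.

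The contact proteins were lower in hypoxia, 4 of 4 tested. Over all genes tested 20.3% were lower in hypoxia and 16.2% were higher with 32-134D. These backgrounds apply to the counts of every role below, and as each role holds few genes, the roles were not compared with a test. F12, KLKB1 and F11 were higher again with 32-134D, and KNG1 did not pass the test. KNG1 encodes kininogen, which carries prekallikrein and factor XI and releases bradykinin, and it had the highest FPKM of the 4 at 20% O2 (8.67 ± 1.05). Its CPM was 34.9, 43.5 and 43.3 at 20% O2 and 11.7, 15.2 and 15.3 at 1% O2. It was 34.4, 32.6 and 5.81 with 32-134D, so that 2 libraries lay above every hypoxic library and the third below. In hypoxia its log2 fold change was -1.53 (SE 0.40, adjusted p = 0.0048, edgeR). With 32-134D it was 0.81 (SE 0.40, adjusted p = 0.11, edgeR), and without replicate 3 it was 1.27 and called.

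F12 encodes factor XII, the first protease of the contact route, and had 8.17 to 9.25 CPM at 20% O2, 1.70 to 2.59 at 1% O2, and 6.98, 6.26 and 1.97 with 32-134D. It fell 4.22-fold in hypoxia (log2 fold change -2.08, SE 0.34, adjusted p = 9.4e-05, edgeR) and rose 2.47-fold with the compound (1.30, SE 0.33, adjusted p = 0.0045), although replicate 3 lay within the hypoxic range. F11, the precursor of the protease that activates factor IX, had 7.03, 9.42 and 10.4 CPM, then 3.21, 4.34 and 4.15, then 8.85, 8.58 and 8.83. Its 32-134D libraries lay within the range at 20% O2 and overlapped no hypoxic library. Its log2 fold changes were -1.22 (SE 0.17, adjusted p = 2.0e-05, edgeR) and 1.18 (SE 0.16, adjusted p = 2.9e-05). KLKB1 (prekallikrein) was scarce, at 1.41 to 1.86, 0.292 to 0.691 and 1.42 to 2.42 CPM, and moved by -1.82 and 1.94 on the log2 scale, both called. Of the exon bases of F12, 14.4% are shared with GRK6 on the opposite strand. KLKB1 shares 6.81% of its exon bases with CYP4V2. KNG1 shares 15.4% of its exon bases with an antisense gene that had 125 counts. How such reads were assigned is not given in the sources used here.

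**Figure D2:**
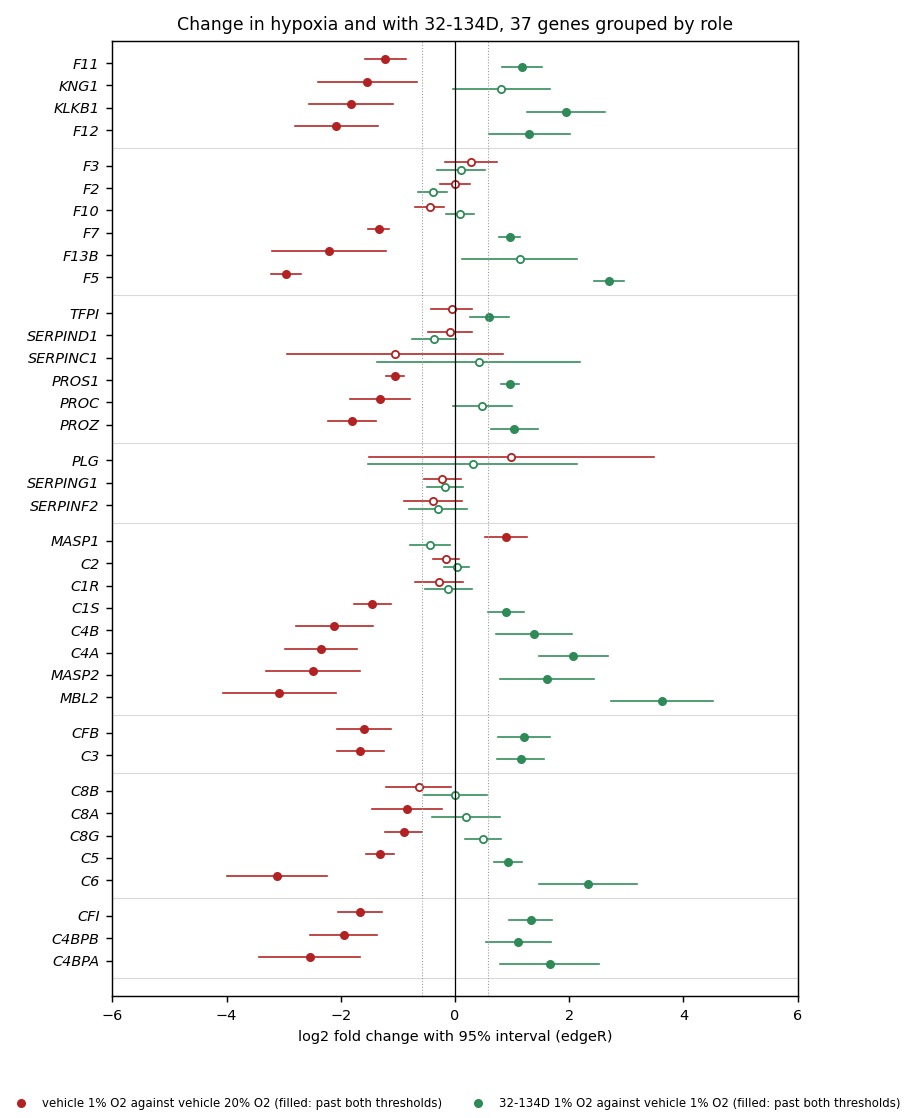
Log2 fold changes with 95% intervals from edgeR (x axis) of the 37 genes tested, grouped by role, for vehicle at 1% O2 against vehicle at 20% O2 (red) and 32-134D against vehicle at 1% O2 (green). Filled points passed both thresholds, open points did not, and dotted lines mark a fold change of 1.5. Of the red points 24 are filled on the left and 1 (MASP1) on the right, and 20 green points are filled on the right.

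In the tissue factor and common route, 3 of 6 genes were lower in hypoxia (background 20.3%). With the compound 2 of the 6, both among those 3, were higher (background 16.2%). F5 encodes the cofactor of factor Xa and moved most of them. Its CPM was 122, 153 and 164 at 20% O2, 15.7, 19.8 and 21.2 at 1% O2, and 123, 127 and 118 with 32-134D. The hypoxic libraries lay far below both other groups, which overlapped. F5 fell 7.77-fold in hypoxia (log2 fold change -2.96, SE 0.12, adjusted p = 1.3e-10, edgeR) and rose 6.49-fold with 32-134D (2.70, SE 0.12, adjusted p = 8.9e-10).

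F7, whose product starts clotting together with tissue factor, had 114, 125 and 138 CPM, then 47.3, 50.6 and 51.7, then 103, 99.1 and 88.4 with 32-134D. The 3 groups did not overlap. F7 fell 2.53-fold in hypoxia (log2 fold change -1.34, SE 0.09, adjusted p = 9.0e-09, edgeR) and rose 1.95-fold with the compound (0.96, SE 0.09, adjusted p = 5.1e-07). F13B, the carrier subunit of the enzyme that crosslinks fibrin, was near its detection limit with 151 counts in all, and fell in hypoxia (-2.21). With 32-134D its log2 fold change was 1.13, not called (adjusted p = 0.062, edgeR), and without replicate 3 it was 1.50 and called.

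F10, F2 and F3 were not called in any comparison. F10 encodes factor X, with 64.4 to 67.9 CPM at 20% O2 and 43.2 to 51.9 at 1% O2, and its log2 fold change of -0.45 (95% interval -0.70 to -0.19, adjusted p = 0.0049, edgeR) was under the fold threshold. Scaled by total counts it was -0.66 and called lower. F2, the prothrombin gene, had 116 to 127 CPM at 20% O2 and 101 to 133 at 1% O2, with a log2 fold change of 0.00 (95% interval -0.26 to 0.26). With 32-134D it had 103, 98.5 and 72.8 CPM, below every library at 20% O2. Its log2 fold change against vehicle at 1% O2 was -0.39 (95% interval -0.65 to -0.13, adjusted p = 0.015, edgeR), under the fold threshold. Without replicate 3 of 32-134D it was -0.25. F3 encodes tissue factor, the membrane protein that triggers clotting, and had 3.50 to 6.59 CPM over the 9 libraries, with a log2 fold change of 0.28 (95% interval -0.17 to 0.74) in hypoxia.

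Of the anticoagulant genes, 3 of 6 were lower in hypoxia (background 20.3%), PROS1, PROC and PROZ. With 32-134D 3 were higher (background 16.2%), PROS1, PROZ and TFPI. PROS1 encodes protein S, the cofactor of protein C, and its fold changes had the smallest SE of the 37 genes. It had 67.0, 65.8 and 64.6 CPM at 20% O2, 30.1, 31.3 and 33.6 at 1% O2, and 60.0, 63.8 and 61.8 with 32-134D, without overlap between groups. Its log2 fold changes were -1.05 (SE 0.07, adjusted p = 1.95e-08, edgeR) and 0.97 (SE 0.07, adjusted p = 1.0e-07). PROZ, a cofactor for inhibition of factor Xa, had 25.1, 24.2 and 24.4 CPM, then 6.33, 7.07 and 7.78, then 16.3, 17.9 and 8.96. It fell by 1.80 on the log2 scale (SE 0.20, adjusted p = 1.75e-06, edgeR) and rose by 1.04 (SE 0.19, adjusted p = 3.9e-04).

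PROC encodes protein C, which inactivates the clotting cofactors, and had 28.4 to 30.8 CPM at 20% O2 and 10.9 to 13 at 1% O2, a log2 fold change of -1.31 (SE 0.24, adjusted p = 3.3e-04, edgeR). With 32-134D it had 20.9, 20.7 and 8.09 CPM. The log2 fold change of 0.48 was not called (adjusted p = 0.12, edgeR), and without replicate 3 it was 0.79 and called. TFPI, which blocks factor VIIa and factor Xa, had 44.8 to 53.2 CPM at 20% O2 and 42.6 to 47.4 at 1% O2, with a log2 fold change of -0.06 (95% interval -0.41 to 0.29). It rose with 32-134D to 55.1, 58.0 and 95.2 CPM (log2 fold change 0.60, SE 0.16, adjusted p = 0.0058, edgeR). That call was lost without replicate 3 of 32-134D (0.31) and without replicate 2 of vehicle at 1% O2 (0.56), where the value lay under the fold threshold.

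SERPIND1, a thrombin inhibitor, was not called, with 115 to 125 CPM at 20% O2, 101 to 126 at 1% O2 and 105, 105 and 54.3 with 32-134D. SERPINC1, the antithrombin gene, had 36 counts over all libraries and was not called, with a wide interval in hypoxia (log2 fold change -1.05, 95% interval -2.94 to 0.84). Of the plasmin and contact inhibitor group, 0 of 3 genes were called in either direction by edgeR or DESeq2, and 0 had an unadjusted p under 0.05 in hypoxia or with 32-134D. SERPINF2 had 253 to 279 CPM at 20% O2 and 168 to 221 at 1% O2 (log2 fold change -0.39, 95% interval -0.90 to 0.12), and 207, 200 and 81.1 with 32-134D. Scaled by total counts it was called lower in hypoxia (-0.61). SERPING1, which encodes the C1 inhibitor and also restrains factor XII and kallikrein, had 38.8 to 45.4 CPM, then 32.9 to 38.9, then 38.8, 35.6 and 22.8 (log2 fold changes -0.22 and -0.18, 95% intervals -0.55 to 0.11 and -0.50 to 0.14). PLG, the plasminogen gene, had 18 counts in all.

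C3 and CFB, the core of the alternative route, were both lower in hypoxia and higher with 32-134D. C3, the protein on which all complement routes converge, had 1357, 1647 and 1647 CPM at 20% O2 and 392, 531 and 549 at 1% O2. With 32-134D it had 1284, 1293 and 693 CPM, below every library at 20% O2 and above every hypoxic library. C3 fell 3.16-fold (log2 fold change -1.66, SE 0.19, adjusted p = 3.55e-06, edgeR) and rose 2.22-fold (1.15, SE 0.19, adjusted p = 1.5e-04). CFB, the protease of the alternative C3 convertase, had 6.38 to 8.17 CPM, then 2.07 to 2.80, then 6.41, 6.03 and 3.66, with log2 fold changes of -1.59 (SE 0.22, adjusted p = 2.0e-05, edgeR) and 1.21 (SE 0.21, adjusted p = 2.5e-04).

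Of the 8 genes of the classical and lectin routes, 5 were lower in hypoxia and higher with the compound, 1 was higher in hypoxia and 2 were not called. The background was 20.3% lower and 19.5% higher in hypoxia, and 16.2% higher with the compound. C1S, a protease of the C1 complex, had 11, 9.74 and 9.88 CPM, then 3.53, 3.58 and 4.11, then 7.80, 7.27 and 5.72, without overlap between groups. Its log2 fold changes were -1.45 (SE 0.15, adjusted p = 1.2e-06, edgeR) and 0.90 (SE 0.15, adjusted p = 1.5e-04). C1R, the protease that activates C1S, had 14.3 to 16.3 CPM at 20% O2 and 11.7 to 14.3 at 1% O2 and was not called (-0.28, 95% interval -0.70 to 0.14). C1R shares 11.4% of its exon bases with C1RL on the same strand. C2, which forms the C3 convertase with C4, was not called either, with 16.2 to 22 CPM over the 9 libraries. C2, CFB and CFI share 32.9%, 45% and 32% of their exon bases with other annotated genes that had at most 2 counts, so reads assigned to neither gene may be missing from their levels.

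MBL2 encodes mannose-binding lectin, which recognises microbial sugars, and was scarce. It had 16, 7 and 28 counts at 20% O2, 5, 2 and 3 at 1% O2 and 40, 34 and 48 with 32-134D. The fitted log2 fold changes were -3.07 (95% interval -4.07 to -2.08) and 3.63 (95% interval 2.74 to 4.52), both called, on 10 hypoxic counts in all. MASP2, the lectin-route protease that cleaves C4 and C2, had 0.942 to 1.46 CPM, then 0.189 to 0.292, then 0.412 to 0.908 (-2.49 and 1.61). It was scarce too, with 11, 4 and 6 counts at 1% O2 and 32, 24 and 9 with 32-134D. Its call with 32-134D was lost after thinning to the smallest library (1.42, adjusted p = 0.17, edgeR). C4A and C4B had 1.57 to 1.95 and 2.51 to 3.23 CPM at 20% O2, 0.265 to 0.424 and 0.566 to 0.795 at 1% O2, and 1.23 to 1.67 and 0.915 to 2.16 with 32-134D. Both fell (-2.34 and -2.11) and rose (2.07 and 1.38), but C4A and C4B are near-identical copies and the split of reads between them is uncertain.

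MASP1 encodes a protease of the lectin route and, by alternative splicing, other products, which these gene counts do not separate. It was the 1 gene of the 37 that was called higher in hypoxia. Its CPM was 47.0, 49.1 and 46.1 at 20% O2, 76.2, 91.8 and 96.0 at 1% O2, and 51.0, 53.7 and 90.5 with 32-134D. Every hypoxic library lay above every library at 20% O2, with a log2 fold change of 0.89 (SE 0.17, adjusted p = 4.2e-04, edgeR), a fold of 1.86. Replicates 1 and 2 of 32-134D lay below the hypoxic range and replicate 3 inside it. The log2 fold change with the compound was -0.44 (SE 0.17, adjusted p = 0.041, edgeR), under the fold threshold, and without replicate 3 it was -0.75 and called lower.

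In the terminal route 4 of 5 genes tested were lower in hypoxia (background 20.3%), and C5 and C6 were higher with 32-134D (background 16.2%). C5, whose cleavage opens the terminal route, had 85.3, 92.6 and 92.9 CPM, then 35.7, 36.6 and 36.7, then 77.0, 75.8 and 53.4. Its log2 fold changes were -1.31 (SE 0.12, adjusted p = 2.0e-07, edgeR) and 0.92 (SE 0.11, adjusted p = 1.0e-05). C6, the next protein of the pore, had 19.2, 18.4 and 19.6 CPM, then 1.62, 2.36 and 2.73, then 15.4, 14.1 and 3.29. It fell 8.67-fold (log2 fold change -3.12, SE 0.41, adjusted p = 1.2e-05, edgeR) and rose 5.03-fold (2.33, SE 0.40, adjusted p = 2.1e-04). Replicate 3 of 32-134D was only just above the highest hypoxic library.

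The 3 chains of C8, which inserts into the membrane, moved less. C8G had 12.6 to 14.6 CPM at 20% O2 and 6.27 to 8.16 at 1% O2 (-0.90, SE 0.15, adjusted p = 1.4e-04, edgeR), and its log2 fold change with 32-134D was 0.49 (SE 0.15, adjusted p = 0.013), under the fold threshold. C8A fell by 0.85 on the log2 scale (adjusted p = 0.021, edgeR), a call lost when replicate 2 or 3 of vehicle at 20% O2 or replicate 1 or 3 of vehicle at 1% O2 was left out (-0.84 to -0.76). C8B had a log2 fold change of -0.64 that was not called (adjusted p = 0.056, edgeR) and was called under DESeq2 (-0.68), RLE scaling (-0.68), total scaling (-0.85), both other count filters (-0.74 and -0.61) and the fit of the compared groups (-0.64). It was also called when any 1 of the 3 libraries of 32-134D was left out (-0.69 to -0.64). With 32-134D C8A and C8B had log2 fold changes of 0.19 (95% interval -0.40 to 0.78) and 0.01 (95% interval -0.54 to 0.56).

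The complement regulators were lower in hypoxia and higher with 32-134D, 3 of 3, at backgrounds of 20.3% and 16.2%. CFI, the protease that inactivates C3b and C4b, had 14.9, 17.3 and 13.6 CPM, then 4.06, 5.14 and 5.12, then 13, 13.8 and 8.64, with log2 fold changes of -1.66 (SE 0.18, adjusted p = 1.6e-06, edgeR) and 1.33 (SE 0.17, adjusted p = 1.8e-05). C4BPA and C4BPB encode the chains of C4b-binding protein, the cofactor of CFI, whose beta chain also binds protein S. C4BPA had 12.7, 14.8 and 11.9 CPM, then 2.28, 2.45 and 1.94, then 9.81, 8.92 and 1.78 (-2.54, SE 0.41, adjusted p = 8.7e-05 and 1.66, SE 0.40, adjusted p = 0.0033, edgeR). C4BPB had 17.6, 19.9 and 17.5 CPM, then 4.13, 4.90 and 5.19, then 13.4, 12 and 4.71 (-1.95, SE 0.27, adjusted p = 2.4e-05 and 1.11, SE 0.27, adjusted p = 0.0032, edgeR). For both genes replicate 3 of 32-134D lay at or below the hypoxic libraries while replicates 1 and 2 lay far above them.

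Of the 24 genes that were lower in hypoxia, 19 were higher with 32-134D. KNG1, F13B, PROC, C8A and C8G were the other 5. Both comparisons use the same 3 libraries of vehicle at 1% O2, so a chance deviation in those libraries moves them in opposite directions, and the count is given as a description. Over all genes tested 16.2% were higher with 32-134D, and their share among all genes lower in hypoxia was not counted. Whether 19 of 24 is more than among other genes is therefore not known. Of the 37 genes, 11 were called in no comparison, a share that was not counted over all genes.

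In 32-134D at 1% O2 against vehicle at 20% O2, which share no hypoxic vehicle library, 0 of 37 genes were higher and 2 were lower, PROC (log2 fold change -0.83, SE 0.24, adjusted p = 0.040, edgeR) and PROZ (-0.76, SE 0.19, adjusted p = 0.018). The background was 3.0% higher and 0.516% lower. Scaled by total counts, 0 of the 37 were higher and 3 lower, at a background of 2.72% and 0.670%. At an unadjusted p under 0.05 edgeR gave 2 higher genes (TFPI and MASP1) and 22 lower, and DESeq2 called 0 higher and 1 lower. The backgrounds given are those of the edgeR calls. The shares of all genes at an unadjusted p and under DESeq2 were not counted. The median of the 37 was -0.40, with 31 of 37 below 0, against -0.00 over all genes. Without replicate 3 of 32-134D both genes lay under the fold threshold (PROC -0.52 and PROZ -0.53), the median was -0.24, and 0 of 37 were called in either direction, at a background of 2.81% higher and 0.372% lower. The call of PROZ was also lost without any 1 library of vehicle at 20% O2 (-0.77 to -0.74), and that of PROC without any 1 of the 6 vehicle libraries (-0.88 to -0.78).

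Replicate 3 of 32-134D had lower levels of most of these genes than replicates 1 and 2. Among the 27 genes with a mean of at least 100 counts in that group, the median ratio of its CPM to the mean of the other two was 0.645, against 0.995 over 11707 genes. Of the 27, 7 (25.9%) had a ratio under 0.5, against 2.03% of all, and 0 had a ratio over 2, against 1.04%. The 7 were KNG1 (0.17), C4BPA (0.19), C6 (0.22), F12 (0.30), C4BPB (0.37), PROC (0.39) and SERPINF2 (0.40). F5, C2, PROS1 and F11 had ratios between 0.94 and 1.01, and C8G, F3, TFPI and MASP1 were higher in replicate 3 (1.31, 1.54, 1.68 and 1.73). Without this library 22 of the 37 genes were higher with 32-134D and 1 was lower, at a background of 16.7% and 14.1%, with a median of 1.02. KNG1, F13B and PROC were then called, TFPI was not, and MASP1 was the lower gene.

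**Figure D3:**
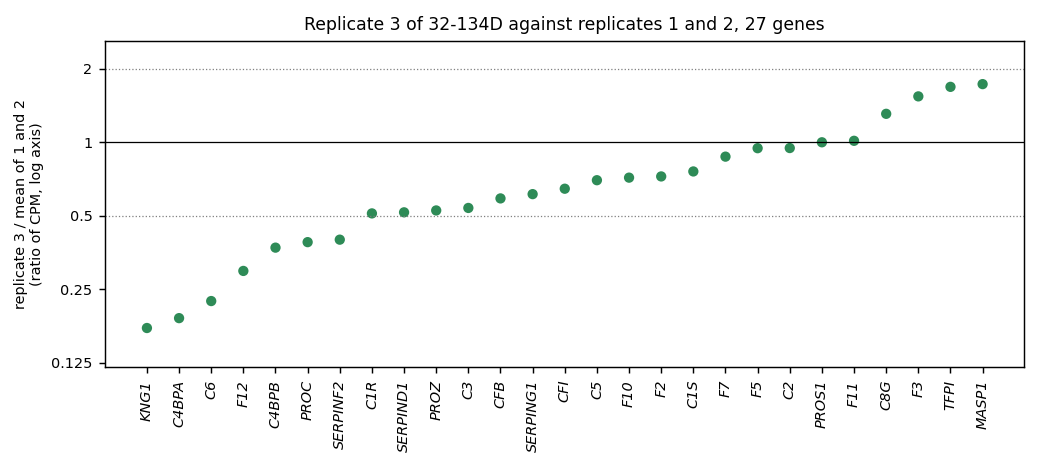
Ratio of the CPM of replicate 3 of 32-134D to the mean of replicates 1 and 2 (y axis, log scale) for the 27 genes with a mean of at least 100 counts in the group, in order. Dotted lines mark ratios of 0.5 and 2. KNG1, C4BPA and C6 lie lowest at 0.17 to 0.22, and MASP1 and TFPI highest at 1.73 and 1.68.

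Several of the genes lie side by side, and neighbours did not always move together. On chromosome 13, F7 ends 2132 bases before F10 and F10 ends 9124 bases before PROZ, with all 3 on the plus strand (positions are from GENCODE version 29 on GRCh38). F7 and PROZ fell in hypoxia (-1.34 and -1.80) and F10 between them was not called (-0.45). The intervals of F7 (-1.53 to -1.15) and PROZ (-2.22 to -1.38) do not reach that of F10. On chromosome 12, C1S fell and C1R, 9166 bases away on the other strand, was not called. On chromosome 6, CFB, C4A and C4B fell, while C2, which overlaps the start of CFB by 23 bases, was not called (-0.16, 95% interval -0.38 to 0.07). C4A is near CFB but not next to it, 29939 bases away with 3 coding genes between them (NELFE, SKIV2L and DXO).

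Other neighbours moved alike. KLKB1 and F11 on chromosome 4, 7473 bases apart, both fell and rose. C4BPB and C4BPA on chromosome 1, 4268 bases apart, did so too. C8A and C8B, 10988 bases apart on opposite strands of chromosome 1, had log2 fold changes of -0.85 and -0.64 in hypoxia and intervals that reach 0 with 32-134D.

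**Figure D4:**
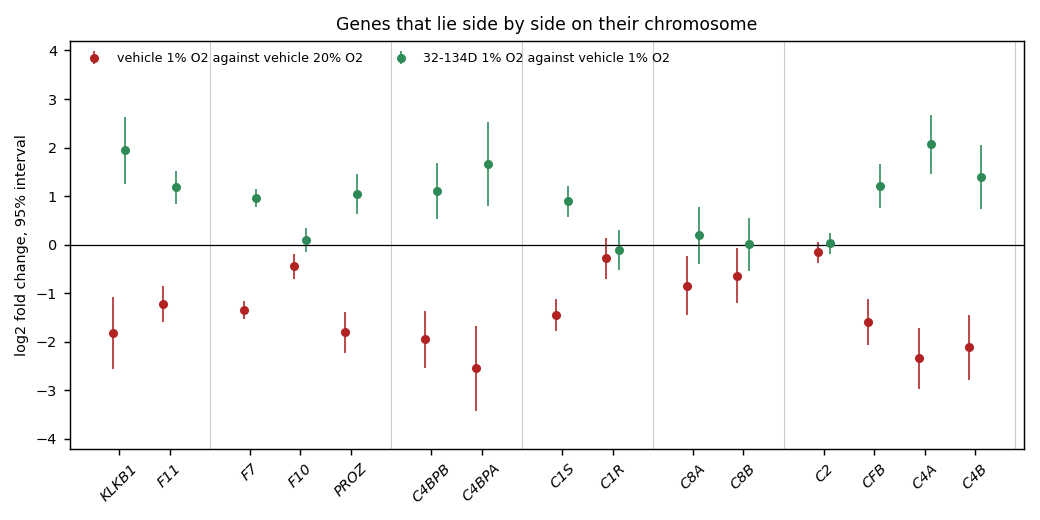
Log2 fold changes with 95% intervals (y axis) of genes next to or near each other, in chromosomal order between the vertical lines. Red is vehicle at 1% O2 against vehicle at 20% O2, and green is 32-134D against vehicle at 1% O2. Between CFB and C4A lie 3 other coding genes. In hypoxia the intervals of C1R and C2 reach 0 and F10 lies at -0.45, while the other genes of their panels lie between -1.34 and -2.34.

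The rest of the coagulation and fibrinolysis genes, from a list of 33 others of which 26 were tested, went both ways. In hypoxia 5 were higher and 4 lower, with a median of -0.08, at a background of 19.5% higher and 20.3% lower. With 32-134D 4 were higher and 5 lower, with a median of 0.13, at a background of 16.2% higher and 13.7% lower. S100A10, which helps to bind plasminogen at the cell surface, rose by 2.29 and fell by 2.15 on the log2 scale. CPB2, an inhibitor of fibrin breakdown, fell by 1.51 and rose by 0.89, and SERPINA5, the protein C inhibitor, fell by 1.09.

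Of 31 other complement genes, 19 were tested. In hypoxia 2 were higher and 6 lower (median -0.48), at a background of 19.5% higher and 20.3% lower. With 32-134D 4 were higher and 2 lower (median 0.27), at a background of 16.2% higher and 13.7% lower. CD55, which protects cells from complement on their own membrane, rose by 1.88 on the log2 scale in hypoxia and fell by 0.67 with 32-134D. C1RL, a relative of C1R, fell by 0.80 and rose by 0.64. Singled out after their values were seen, C5AR1 (3.26) was also called higher, and C7 (-3.34) and CFHR5 (0 counts in the hypoxic vehicle libraries) lower, on 63, 149 and 39 counts in all. CD46, another membrane protector, fell by 0.60, and its value with 32-134D, 0.54 on the log2 scale, was under the fold threshold.

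Of 15 liver transcription factors and their partners, all tested, 5 were higher and 5 lower in hypoxia, at a background of 19.5% and 20.3%. With 32-134D 5 were higher and 5 lower, at a background of 16.2% and 13.7%. HNF4A had 382 ± 42.9, 353 ± 6.11 and 361 ± 16.9 CPM in the 3 groups and was not called. PROX1 fell from 311 ± 46.8 to 32.8 ± 1.60 CPM and returned to 278 ± 8.93 (log2 fold changes -3.25 and 3.09, both called). NR1H4, the bile acid receptor, fell by 2.08 and rose by 1.53. CEBPB rose by 1.87 and fell by 0.81, and FOXA3 rose by 1.44 and had a log2 fold change of -0.98, called. CEBPA, singled out after its values were seen, had 364, 347 and 111 CPM in replicates 1, 2 and 3 of 32-134D, while HNF4A had 349, 353 and 380. The part of these factors in the levels of the coagulation and complement genes was not tested.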

How the data were processed

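RNA of 9 Hep3B libraries was sequenced on a NovaSeq6000. The authors deposited raw counts per Ensembl gene on GRCh38, without normalization, made with FastQC, Bbduk, STAR and featureCounts in a pipeline built on Ensembl release 100; versions and the strand setting are not given in the sources used here. The labels also name MultiQC and DESeq2.

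Counts were compared with the quasi-likelihood test of edgeR 4.0.16 (run in R 4.3.3) after TMM scaling, all 9 libraries in 1 fit, for the 22672 genes with summed counts of at least 10. Each SE is the absolute log2 fold change divided by the square root of the test's F, and intervals are 95%. The common biological coefficient of variation was 10.5%. CPM are scaled by TMM, and FPKM here are CPM per kilobase of the summed exons of GENCODE version 29, an older annotation than that of the counts. Promoter sequences are RefSeq's on GRCh38.p14. Group labels gave the 3 comparisons. The replicate numbers did not pair the libraries (correlations of the deviations of same-numbered libraries from -0.03 to 0.01). A sample's floor is 3 counts, and this and the intervals of single libraries cover counting error only.

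The 39 genes, the lists and the tests were chosen with earlier results of these data known. Members called in at least 1 comparison with a mean of at least 100 counts in the higher group are given with full statistics, and from each list of other genes the 2 highest and 2 lowest of those called in hypoxia with such a mean, apart from 1 gene that is not reported here. The alternatives were DESeq2 1.42.0, 2 other scalings, 2 other count filters, 2 other fold thresholds, leaving out each library, a replicate block, thinning to the smallest library, and fits of the compared groups alone. The procedure was tested on simulated data.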

Additional observations from a re-analysis of the deposited data

How the results depend on the processing

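Over the 19 alternative settings, 1968 of the values of single genes kept their direction and their side of the thresholds, 54 came to pass them, 32 no longer passed and 25 reversed, and none of the reversed values had been called. In hypoxia the counts of 24 lower and 1 higher genes stayed between 20 and 27 and at 1, apart from 0 higher with a fold change above 2. With 32-134D the count of 20 higher genes stayed between 15 and 24, and the count of 0 lower became 2 with no fold threshold. Against vehicle at 20% O2, the count of 0 higher became 1 with no fold threshold, and that of 2 lower became 1 under DESeq2, 9 with no filter above 1 count, 0 with a fold change above 2, 5 with no fold threshold, 0 in the fit of the 2 groups and 4 after thinning. Leaving out 1 library at a time gave 23 to 25 lower in hypoxia, 19 to 22 higher and 0 to 1 lower with 32-134D, and 0 to 2 higher and 0 to 5 lower against vehicle at 20% O2.

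Of the other coagulation and fibrinolysis genes, 3 were higher in hypoxia with a fold change above 2, and the 4 lower became 7 under total scaling, 2 with a fold change above 2 and 7 with no fold threshold. With 32-134D the 4 higher became 8 under total scaling, 1 with a fold change above 2 and 8 with no threshold, and the 5 lower became 3 under DESeq2, 3 under total scaling, 3 where every library had 10 counts or more and 8 with no threshold. Of the other complement genes, 1 was higher in hypoxia with at least 10 counts in every library or after thinning, and with 32-134D 2 were higher with a fold change above 2. The 2 lower became 1 under DESeq2, RLE scaling, the fit of the 2 groups and thinning, and 0 under total scaling, where every library had 10 counts or more and with a fold change above 2. Of the liver transcription factors, 2 were higher and 1 lower with 32-134D at a fold change above 2. Leaving out 1 library gave 1 to 5 other coagulation genes higher and 3 to 5 lower with 32-134D, 3 to 5 and 1 to 2 other complement genes, and 3 to 5 and 5 to 6 liver transcription factors.

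The reversed values were, on the log2 scale, F11 against vehicle at 20% O2 after thinning (0.19), F2 in hypoxia with no filter (0.027), SERPING1 and C1R with 32-134D under total scaling (0.010 and 0.072), C8A after thinning (-0.064) and C8B with no filter (-0.0015). When 1 library was left out, the log2 fold change with 32-134D ran from -0.13 to 0.35 for F3, -0.012 to 1.18 for SERPINC1, -0.028 to 0.98 for PLG, -0.48 to 0.019 for SERPINF2, -0.27 to 0.019 for SERPING1, -0.24 to 0.13 for C1R, -0.037 to 0.12 for C2, -0.054 to 0.48 for C8A and -0.19 to 0.30 for C8B. In hypoxia it ran from -0.086 to 0.11 for F2 and from -0.16 to 0.011 for TFPI. Against vehicle at 20% O2 it ran from -0.10 to 0.30 for KLKB1 and from -0.19 to 0.12 for F11. The cause of these changes was not tested.

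With the replicate numbers as a block, which do not pair the libraries, 24 genes were lower in hypoxia, 19 higher with 32-134D and 3 lower against vehicle at 20% O2. TFPI (0.58) was no longer called with 32-134D, C4BPB (-0.91) was called lower against vehicle at 20% O2, and C8B with 32-134D was -0.033. In the smallest library 3 counts are 0.499 CPM, so that changes of F9, C9, PLG and SERPINC1 were not detectable at this depth.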

Other observations

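Several of the genes encode proteins that need vitamin K, which lets the liver carboxylate them before secretion. Of the 7 with this modification, F9 had no counts, F7, PROC, PROS1 and PROZ were lower in hypoxia, and F10 and F2 were not called. Of all 37 genes tested here 24 were lower, at a background of 20.3%. The enzymes of the modification were chosen after their values were seen. VKORC1, which recycles vitamin K, rose from 17.3 ± 3.49 to 44.3 ± 3.8 CPM in hypoxia (SD, n = 3; log2 fold change 1.33, adjusted p = 3.2e-07, edgeR) and fell to 20.8 ± 1.37 CPM with 32-134D (-1.09, adjusted p = 2.7e-06). Its relative VKORC1L1 had 59.0 ± 0.606, 43.1 ± 3.24 and 59.8 ± 2.34 CPM, under the fold threshold in both comparisons (-0.45 and 0.47). GGCX, the carboxylase, had 136 ± 4.23, 98.5 ± 2.42 and 111 ± 18.3 CPM and was not called (-0.46 and 0.17). SERPINA10, the inhibitor of factor Xa that works with protein Z and was also chosen after its values were seen, fell in hypoxia beside PROZ (-0.79, adjusted p = 0.0014, edgeR) and lay under the fold threshold with 32-134D (0.46).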
